A study of Mus musculus with 17 samples.

Results

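Transcription factors that pattern the hypothalamus were measured in RNA bound to the ribosomes of POMC neurons, in the offspring of mouse dams fed a high-fat diet (HFD) or standard chow. POMC neurons make pro-opiomelanocortin, lie in the arcuate nucleus at the base of the hypothalamus and suppress appetite. The factors are Isl1, Nkx2-1, Tbx3, Prdm12, Nhlh2, Otp, Sim1, Nr5a1 and Fezf1. They were taken by gene symbol from a list chosen with earlier results of these data known, and are 9 of the 15355 genes in the deposited table. All 9 were present once, and all 9 passed the filter on low values in every comparison below.

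The 17 libraries came from mediobasal hypothalamus and fall into 4 groups by maternal diet and age, HFD P21 (n = 4), chow P21 (n = 3), HFD P0 (n = 5) and chow P0 (n = 5), where P is postnatal day. Dams of the POMC RiboTag strain were put on a 45% high-fat diet or on chow at 6 weeks of age, were mated 4 weeks later and stayed on that diet until day 21. Pups at P0 had therefore met the diet through the dam before birth, and pups at P21 also through lactation. RiboTag places an HA tag on a ribosomal protein in cells that express Cre recombinase, and an antibody to HA then pulls down ribosomes with the RNA they hold. All 4 groups carry this tag, and the labels give neither the Cre line nor the sex, litter or pooling of the animals. A tag switched on in a Pomc-expressing progenitor stays in its descendants, so cells that no longer express Pomc can be in the pull-down.

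The factors act in different nuclei. Isl1 and Nkx2-1 are homeodomain proteins that bind the neuronal enhancers of Pomc and are needed for its expression, Tbx3 is a T-box factor that maintains POMC neuron identity, and Prdm12 is a zinc finger protein required for Pomc expression. Nhlh2 is a basic helix-loop-helix factor of arcuate and other hypothalamic neurons whose loss in mice causes adult obesity. Otp and Sim1 build the neuroendocrine neurons of the paraventricular nucleus, while Nr5a1 (SF-1) and Fezf1 build the ventromedial nucleus, which lies beside the arcuate nucleus. Levels are in the deposited signal, a gene's reads divided by an effective library size, a scale close to CPM.

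Between 22.4 and 37.1 M reads per library were counted to the genes of the table, and 3 reads, the limit that a value of 0 allows, corresponded to 0.0826 to 0.138 units. This limit covers counting error only. Pomc reached 9818, 8268, 7460.1 and 8528 units in HFD P21, 4679, 3878 and 12069.6 in chow P21, 90.7, 246, 102, 181 and 1057 in HFD P0 and 146, 224, 657, 891 and 1308 in chow P0. The 9 POMC neuron markers were all detected in each group, but so were markers of cells other than POMC neurons. The summed level of 8 oligodendrocyte markers was 3336 to 6390 units in HFD P21, against 7194 to 15643 in chow P21, and that of 12 astrocyte, radial glia and tanycyte markers was 530 to 938 against 1043 to 1430. Only 3 of 13 anterior pituitary markers are in the table, and their sum was 10.4 to 49.3 units in HFD P21, 9.42 to 35.7 in chow P21, 0.12 to 3.84 in HFD P0 and 0.48 to 2.68 in chow P0. Chow P21 library 3 and HFD P0 library 5 stood apart from their groups. Chow P21 library 3 had the most Pomc of the chow P21 libraries, the least Agrp, the AgRP neuron peptide (14.0 units, against 132.5 and 184), and the most Pitx1, a pituitary factor (9.51 units, against 0.74 and 2.54), and it was the lowest chow P21 library for 8 of the 9 factors. HFD P0 library 5 had the most Pomc of its group and was the highest HFD P0 library for 5 of the 9 factors.

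The promoter windows of Pomc, Isl1 and Nkx2-1 are shown because Isl1 and Nkx2-1 act on Pomc. Both were mostly high in the P0 libraries with the most Pomc. Tbx3 was high there too, but no window was matched for it. Each line is the 250 bases before the RefSeq start on the GRCm38.p6 build, read 5′ to 3′ on the gene's own strand. Capitals mark TAAT, the core recognised by homeodomain proteins, and AAGGTCA, the half-site recognised by Nr5a1, on either strand.
Pomc, chr12:3954695-3954944, plus strand: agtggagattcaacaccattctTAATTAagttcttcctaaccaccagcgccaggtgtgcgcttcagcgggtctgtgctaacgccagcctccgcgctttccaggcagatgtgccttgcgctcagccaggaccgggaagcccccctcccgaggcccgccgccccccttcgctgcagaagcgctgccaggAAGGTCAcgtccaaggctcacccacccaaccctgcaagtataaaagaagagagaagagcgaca
Isl1, chr13:116309689-116309938, minus strand: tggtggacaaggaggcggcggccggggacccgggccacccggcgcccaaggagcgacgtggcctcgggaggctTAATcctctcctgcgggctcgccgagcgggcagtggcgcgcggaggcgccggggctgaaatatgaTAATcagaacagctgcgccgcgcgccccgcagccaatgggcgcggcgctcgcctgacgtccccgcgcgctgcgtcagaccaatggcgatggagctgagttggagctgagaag
Nkx2-1, chr12:56536909-56537158, minus strand: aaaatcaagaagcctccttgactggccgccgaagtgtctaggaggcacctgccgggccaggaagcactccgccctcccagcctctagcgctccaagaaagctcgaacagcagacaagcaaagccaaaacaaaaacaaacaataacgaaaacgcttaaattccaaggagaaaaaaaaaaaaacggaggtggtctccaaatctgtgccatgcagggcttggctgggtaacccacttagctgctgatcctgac
The Pomc window held TAAT at 2 positions that overlap each other on opposite strands, and AAGGTCA once, with its first base 63 bases before the start. The Isl1 window held TAAT at 2 separate positions, and the Nkx2-1 window held neither motif. TAAT was in 54.9% and AAGGTCA in 4.08% of 32851 RefSeq windows of 250 bases, on both strands, so a TAAT in a window is common and AAGGTCA less so. The GC content was 60.0% in the Pomc window, 71.2% in the Isl1 window and 50.8% in the Nkx2-1 window, against a median of 52.4% over all windows, and they held 15, 33 and 9 CpG dinucleotides against a median of 6. The core of the T-box factors (GGTGTGA, in 3.33% of windows) and that of Nkx2-1 itself (CAAGTG, in 11.6%) were in none of the 3 windows, and the TATA box (TATAAA, in 12.4%) was in the Pomc window alone of the 3. RefSeq windows were matched for 7 of the 9 factors, not for Tbx3 and Nr5a1. The windows are promoter bases alone, and the neuronal enhancers of Pomc were not examined. A motif match is a description of letters, not of binding.

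Per kilobase of exon, Isl1 had the highest mean level of the 9 factors in every group, at 33.9 ± 4.69 units per kb in HFD P21 (SD, n = 4), 24.6 ± 11.3 in chow P21 (n = 3), 24.0 ± 17.4 in HFD P0 (n = 5) and 34.1 ± 17.9 in chow P0 (n = 5). Otp and Sim1 were the lowest pair at P21, at 0.561 ± 0.340 and 0.221 ± 0.0777 units per kb in HFD P21 and 0.791 ± 0.212 and 0.288 ± 0.186 in chow P21. Below Isl1 came Tbx3, Nkx2-1 and Nr5a1 in HFD P21, in that order, while Nkx2-1 and then Fezf1 came next in both P0 groups. Most neighbours in this order overlapped between libraries. The ranges of neighbours lay apart only between Prdm12 and Otp in both P21 groups, between Otp and Sim1 in chow P21, and between Nr5a1 and Sim1 in chow P0. Otp rested on 19 to 104 reads per library, Sim1 on 14 to 442 and Prdm12 on 42 to 1565, whereas Isl1 rested on 1177 to 7420.

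**Figure D1:**
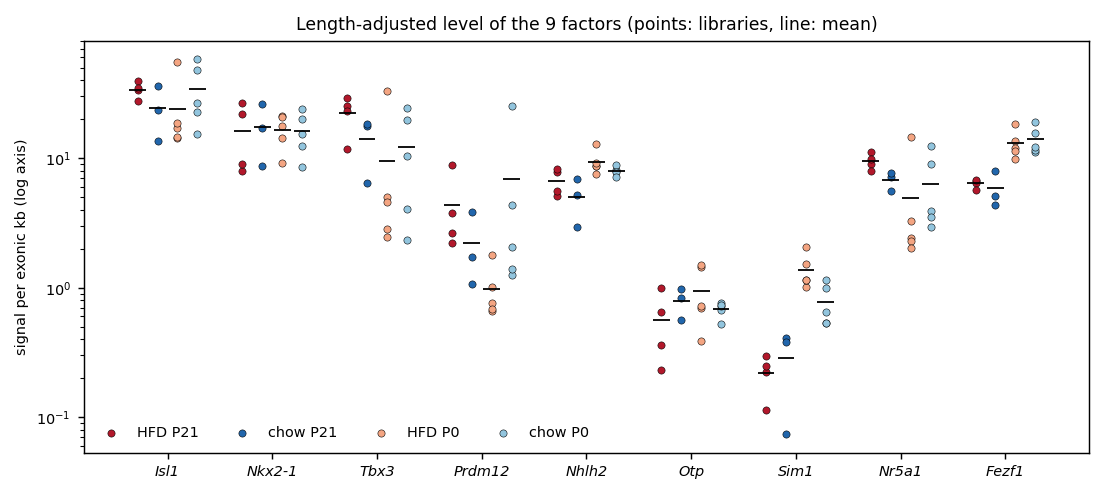
Level of each of the 9 factors in deposited units per kilobase of exon (log axis), with 1 point per library and a line at the group mean. The mean of Isl1 lies between 24.0 and 34.1 in the 4 groups, and Otp and Sim1 lie lowest at P21.

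With age, 5 of the 9 factors differed between P21 and P0 in HFD offspring and 3 of 9 in chow offspring (limma on log2(value + 1), adjusted p under 0.05 over all genes). In HFD offspring Tbx3, Prdm12 and Nr5a1 rose and Sim1 and Fezf1 fell. In chow offspring Fezf1, Sim1 and Nhlh2 fell. Age moved a large part of the table, 50.9% of 14245 genes in HFD offspring (24.7% higher and 26.2% lower) and 36.1% of 14549 genes in chow offspring (18.3% higher and 17.7% lower), so counts of 5 and 3 of 9 are near the background. Without HFD P0 library 5 the count in HFD offspring was 6 of 9, with Isl1 added, where 28.3% of 14118 genes were higher and 29.2% lower. Without chow P21 library 3 the count in chow offspring was 1 of 9, Fezf1, where 14.9% of 14776 genes were higher and 14.4% lower. The age groups did not overlap for 3 of the 9 in HFD offspring and 3 of the 9 in chow offspring, against 38.7% and 37.2% of all genes tested. In these bulk samples fewer cells of a type and less RNA per cell cannot be told apart.

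Gene positions below are those of GENCODE M21 on GRCm38, and each value covers the whole gene. Fezf1 (chr6:23245044-23248362, minus strand), the ventromedial zinc finger factor, was lower at P21 under both diets, and its age groups overlapped under neither. It had 16.1, 15.4, 16.45 and 13.7 units in HFD P21, against 32.8, 28.9, 23.8, 27.3 and 44.2 in HFD P0. In chow offspring it had 19.3, 12.4 and 10.6 units at P21, against 26.9, 27.9, 29.45, 37.6 and 46.2 at P0. The log2 difference was -0.95 in HFD offspring (SE 0.21, limma adjusted p = 0.00208) and -1.21 in chow offspring (SE 0.25, limma adjusted p = 0.00234). Fezf1 passed in each of these comparisons whichever single library was left out. In HFD P21 it varied least of the 9 factors, with a coefficient of variation of 8.03%.

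Sim1 (chr10:50894754-50989152, plus strand), the basic helix-loop-helix factor of the paraventricular nucleus, showed the largest fall of the 9 in HFD offspring. It had 1.93, 2.15, 0.98 and 2.56 units in HFD P21, against 17.8, 13.2, 8.76, 9.93 and 9.95 in HFD P0, so every P21 library lay below every P0 library. The log2 difference was -2.14 (SE 0.29, limma adjusted p = 4.14e-05). In chow offspring Sim1 had 3.51, 3.31 and 0.64 units at P21, against 8.62, 9.97, 4.64, 5.62 and 4.60 at P0, again without overlap. There the log2 difference was -1.22 (SE 0.39, limma adjusted p = 0.0282), and it was -0.75 (adjusted p = 0.151) without chow P21 library 3, -1.13 (adjusted p = 0.0573) without chow P0 library 1 and -1.08 (adjusted p = 0.0518) without chow P0 library 2. Otp (chr13:94875602-94885130, plus strand), the homeodomain factor of the same neurons, rested on few reads in every library. It had 0.67, 2.88, 1.05 and 1.86 units in HFD P21, 2.42, 2.81 and 1.61 in chow P21, 4.18, 4.32, 2.00, 2.08 and 1.11 in HFD P0 and 1.51, 2.20, 1.94, 2.07 and 2.12 in chow P0. The age difference of Otp was -0.50 in HFD offspring (SE 0.36, limma adjusted p = 0.258) and 0.13 in chow offspring (SE 0.29, limma adjusted p = 0.754).

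Tbx3 (chr5:119670669-119684724, plus strand) was higher at P21 than at P0 in HFD offspring, with 1 exception among the P0 libraries. It had 167, 153, 77.6 and 193 units in HFD P21, against 18.7, 33.35, 16.2, 30.5 and 219 in HFD P0, where library 5 stood above all P21 libraries. The log2 difference was 1.89 (SE 0.57, limma adjusted p = 0.0135), and it was 2.52 (adjusted p = 3.70e-06) without that library. In chow offspring Tbx3 had 118, 121 and 42.7 units at P21, against 15.6, 26.95, 68.8, 131 and 161 at P0, and the P21 values lay within the range of the P0 values. The log2 difference there was 0.55 (SE 0.64, limma adjusted p = 0.533), and it was 1.04 (adjusted p = 0.301) without chow P21 library 3 and 0.10 (adjusted p = 0.908) without chow P0 library 1. In the annotation 1.74% of the exonic bases of Tbx3 lie under Tbx3os1 on the opposite strand.

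Nr5a1 (chr2:38692656-38714542, minus strand), the nuclear receptor that defines ventromedial neurons, also rose in HFD offspring. It had 47.6, 38.4, 33.8 and 42.15 units in HFD P21, against 10.3, 9.66, 8.63, 13.9 and 61.3 in HFD P0, where library 5 was again the highest. Its log2 difference was 1.35 (SE 0.44, limma adjusted p = 0.0190), 1.17 (adjusted p = 0.0506) without HFD P0 library 3 and 1.84 without HFD P0 library 5. In chow offspring it had 30.3, 32.8 and 23.6 units at P21, against 12.45, 16.5, 15.0, 38.05 and 52.8 at P0, a log2 difference of 0.31 (SE 0.40, limma adjusted p = 0.587) that was 0.10 without chow P0 library 1 and 0.60 without chow P0 library 5. Nr5a1 and Fezf1 both mark the ventromedial nucleus, and in HFD offspring Nr5a1 rose while Fezf1 fell.

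Prdm12 (chr2:31640037-31655795, plus strand) had the lowest mean per kilobase of the 5 arcuate factors in every group. It had 6.49, 5.45, 9.40 and 21.8 units in HFD P21, against 1.89, 2.50, 1.62, 1.68 and 4.39 in HFD P0, with no overlap. The HFD P0 values rested on few reads, 47, 59, 51, 42 and 150. The log2 difference was 1.66 (SE 0.38, limma adjusted p = 0.00237), and 1.83 without HFD P0 library 5. In chow offspring it had 9.54, 2.62 and 4.23 units at P21, against 3.08, 10.7, 3.45, 5.10 and 62.7 at P0, where 1 library of 5 was far above the rest. There the log2 difference was -0.72 (SE 0.74, limma adjusted p = 0.482) with all libraries, -0.04 without chow P0 library 5 and -1.14 without chow P21 library 1. In the annotation 8.09% of the exonic bases of Prdm12 lie under Gm13425 on the opposite strand, and the strand setting of the counting is not given in the sources used here.

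Isl1 (chr13:116298281-116309689, minus strand) had 155, 110.2, 134 and 137 units in HFD P21, against 68.2, 56.9, 57.8, 74.45 and 217 in HFD P0, so that 4 of the 5 P0 libraries lay below every P21 library and 1 above. The log2 difference was 0.70 (SE 0.32, limma adjusted p = 0.0808), and it was 1.05 (adjusted p = 3.53e-05) without HFD P0 library 5. In chow offspring Isl1 had 144, 93.9 and 54.1 units at P21, against 60.4, 90.4, 107, 189 and 229 at P0, a log2 difference of -0.41 (SE 0.40, limma adjusted p = 0.446). It was -0.05 without chow P21 library 3 and -0.75 without chow P21 library 1, and missed the threshold whichever library was left out. The Isl1 call in HFD offspring turned on a single P0 library.

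Nhlh2 (chr3:102010076-102015492, plus strand) had 37.6, 28.0 and 16.1 units in chow P21, against 42.9, 43.8, 48.1, 42.5 and 38.9 in chow P0, where it was steady, with a coefficient of variation of 7.59%. The log2 difference was -0.72 (SE 0.24, limma adjusted p = 0.0294), and it was -0.40 (adjusted p = 0.154) without chow P21 library 3. It also missed the threshold without chow P21 library 2 (adjusted p = 0.0610) and without chow P0 library 3 (adjusted p = 0.0630). In HFD offspring it had 42.65, 27.4, 30.15 and 44.35 units at P21, against 47.1, 70.1, 47.05, 40.95 and 50.1 at P0, a log2 difference of -0.49 (SE 0.21, limma adjusted p = 0.0609) that reached -0.60 (adjusted p = 0.0443) without HFD P21 library 4. With each column rescaled to the same sum it was -0.66 (adjusted p = 0.0139).

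Nkx2-1 (chr12:56531958-56536908, minus strand), which specifies the ventral hypothalamus, had a mean of 46.4 ± 26.4 units in HFD P21 (SD, n = 4), 49.1 ± 24.7 in chow P21 (n = 3), 47.1 ± 14.2 in HFD P0 (n = 5) and 45.7 ± 17.3 in chow P0 (n = 5). Its libraries read 22.6, 62.1, 25.6 and 75.4 units in HFD P21, 74.05, 48.4 and 24.7 in chow P21, 40.5, 60.1, 26.05, 50.0 and 58.75 in HFD P0 and 24.2, 35.3, 43.9, 68.2 and 57.0 in chow P0. Its age difference was -0.15 in HFD offspring (SE 0.35, limma adjusted p = 0.748) and 0.05 in chow offspring (SE 0.36, limma adjusted p = 0.921). The spread within each group was wide, up to 3.33-fold between the highest and the lowest HFD P21 library.

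**Figure D2:**
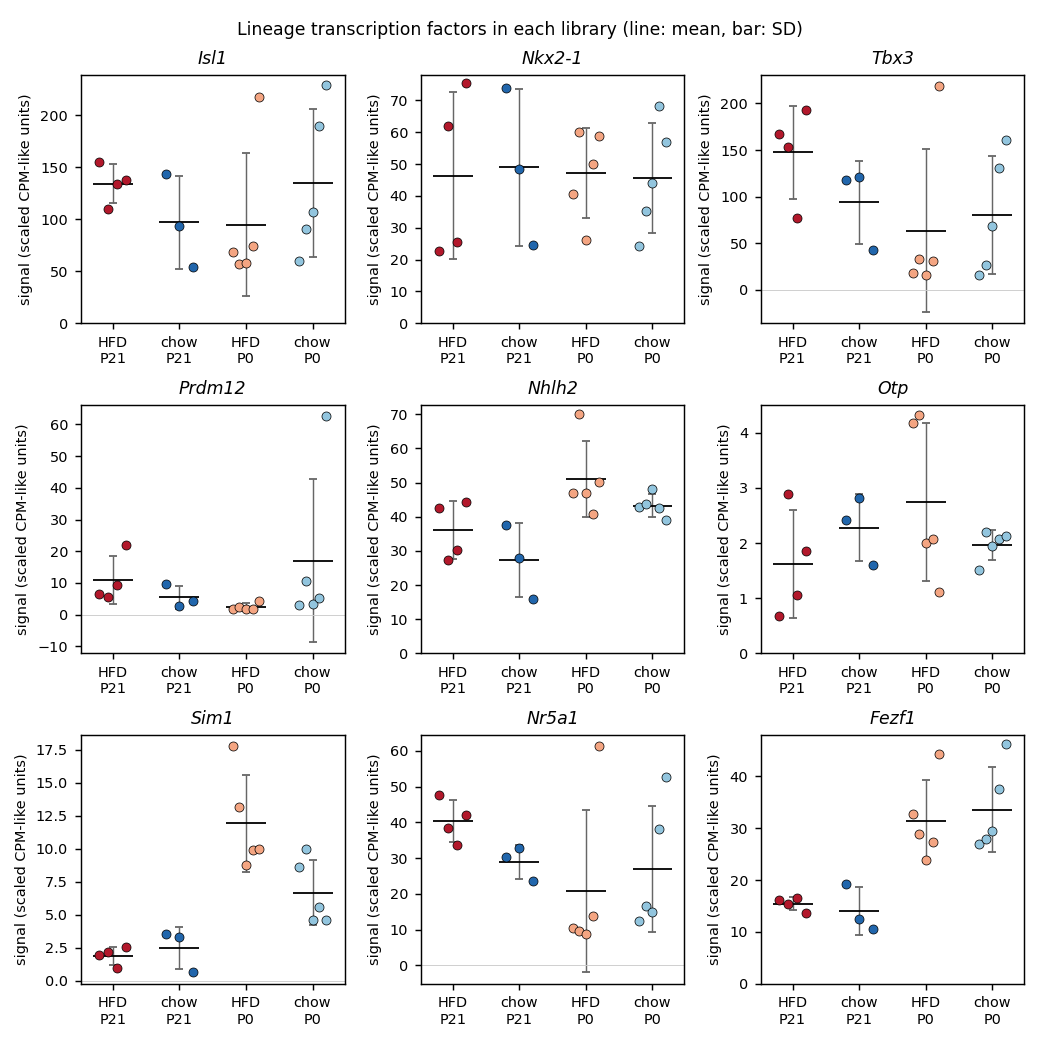
Deposited signal of each of the 9 factors in every library, with the group mean (line) and SD (bar). Fezf1 and Sim1 are lower at P21 under both diets with no overlap, and HFD P0 library 5 stands far above the other HFD P0 libraries for Isl1 (217), Tbx3 (219) and Nr5a1 (61.3).

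The other factors of these nuclei were mostly lower at P21. Of 17 other arcuate and Pomc-lineage factors in the table, 16 were tested in HFD offspring, where 10 fell and 1 rose (median log2 difference -1.46), and 17 in chow offspring, where 7 fell and none rose (median -0.96). The distal-less genes, which act in GABAergic progenitors, and the zinc finger factor Sp9 had the smallest p-values of this list. Dlx1 fell, with a log2 difference of -2.75 in HFD offspring (SE 0.27, limma adjusted p = 2.67e-06) and -2.09 in chow offspring (SE 0.28, limma adjusted p = 9.94e-05). The log2 difference of Dlx2 was -2.97 in HFD offspring and -2.57 in chow offspring, that of Dlx5 was -2.33 in HFD offspring, and that of Sp9 was -2.85 in chow offspring. The 1 that rose in HFD offspring, named after its value was seen, was Six3, a homeodomain factor of the ventral forebrain (1.37).

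Of 8 other ventromedial factors, 7 fell in HFD offspring (median -2.21) and 6 in chow offspring (median -1.59). Foxp2, a forkhead factor, fell, with a log2 difference of -2.60 in HFD offspring (SE 0.19, limma adjusted p = 1.90e-07) and -2.61 in chow offspring (SE 0.35, limma adjusted p = 9.70e-05). Nr2f1, an orphan nuclear receptor, was at -3.27 in HFD offspring and -1.62 in chow offspring, both past the threshold. Of 14 tested paraventricular, lateral and mammillary factors other than Otp and Sim1, 13 fell in HFD offspring (median -1.78) and 11 in chow offspring (median -1.23). Lhx9, a LIM-homeodomain factor of hypothalamic neurons, fell, with a log2 difference of -4.97 in HFD offspring (SE 0.41, limma adjusted p = 5.93e-07) and -3.89 in chow offspring (SE 0.47, limma adjusted p = 4.50e-05). The median over all genes tested was -0.05 in HFD offspring and -0.01 in chow offspring. Without HFD P0 library 5 the counts in HFD offspring were 12 lower and 2 higher of 16 arcuate, 6 lower and 1 higher of 8 ventromedial and 14 lower of 14 paraventricular factors. Without chow P21 library 3 the counts in chow offspring were 8 lower of 17, 6 lower of 8 and 9 lower of 15. Over all genes, 28.3% were higher and 29.2% lower in HFD offspring without HFD P0 library 5. In chow offspring without chow P21 library 3, 14.9% were higher and 14.4% lower. Beside these falls, the sum of 12 astrocyte, radial glia and tanycyte markers was 530 to 938 units in HFD P21, against 1242 to 2058 in HFD P0, and that of 8 oligodendrocyte markers was 3336 to 6390 against 269 to 360. In chow offspring these sums were 1043 to 1430 at P21 against 1459 to 2622 at P0 for the first list, and 7194 to 15643 against 319 to 861 for the second. The members of the first list did not move together, and those given here were named after their values were seen. The radial glia and progenitor markers Fabp7 (-4.30 in HFD and -4.20 in chow offspring) and Nes (-3.43 and -2.14) fell. So did Vim (-1.63 and -2.09) and Hes5 (-2.35 and -0.99). The astrocyte markers Gfap (2.48 and 2.98), Aqp4 (0.93 and 1.27) and Gja1 (0.60 and 1.40) rose. In all, 6 fell and 3 rose in HFD offspring, and 4 fell and 3 rose in chow offspring. Not all astrocyte markers rose. In HFD offspring Gfap, Aqp4 and Gja1 were the only 3 of the 12 with a difference above 0, and 9 lay below. Of the others in chow offspring, Aldh1l1 (-0.61), Col23a1 (-0.53) and Sox9 (-0.50) lay below 0. Slc1a3 (0.39) and Rax (0.07) lay above, and none of these passed the threshold. The part of these markers in the result was not tested.

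**Figure D3:**
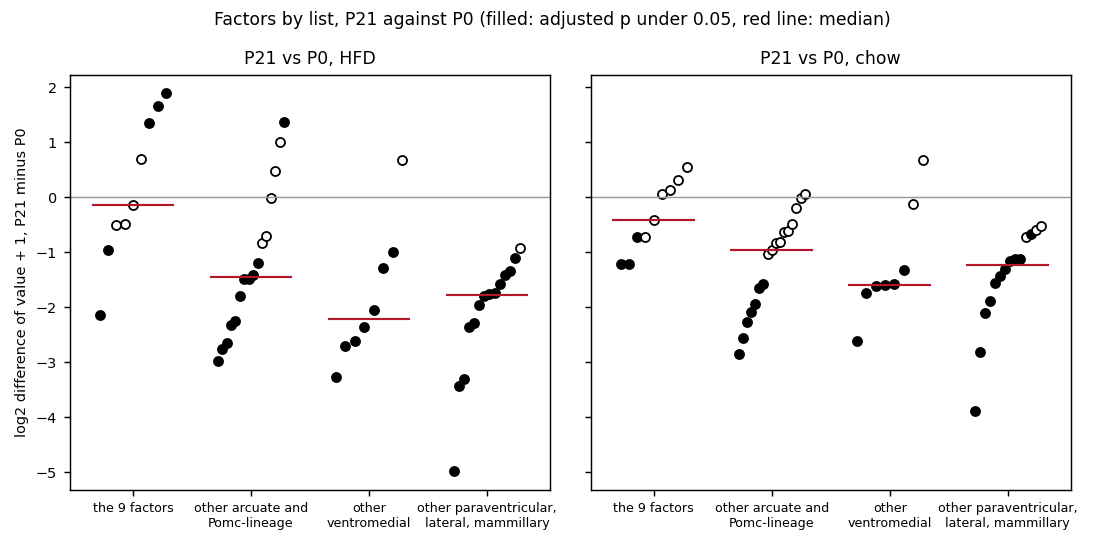
Log2 differences between P21 and P0 for the 9 factors and for 3 lists of other hypothalamic factors, in HFD offspring (left) and chow offspring (right), with filled points for adjusted p under 0.05 and a red line at each list's median. The medians of the other arcuate, ventromedial and paraventricular lists are -1.46, -2.21 and -1.78 in HFD offspring and -0.96, -1.59 and -1.23 in chow offspring, and points above 0 are found mostly among the 9 factors and the arcuate list.

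By limma, maternal diet moved none of the 9 factors past the threshold at P21, where 0.178% of 14070 genes passed. At an unadjusted p under 0.05, 1 of the 9 passed, Nr5a1, against 17% of all genes. Nr5a1 had 47.6, 38.4, 33.8 and 42.15 units in HFD P21, against 30.3, 32.8 and 23.6 in chow P21, and was the only one of the 9 whose groups did not overlap, against 16.1% of all genes. Its log2 difference was 0.47 (SE 0.20, limma adjusted p = 0.252), and it was 0.34 without chow P21 library 3. The values of Tbx3 and Isl1 in the P21 groups, listed above, overlapped. Their log2 differences were 0.72 for Tbx3 (SE 0.37, limma adjusted p = 0.351) and 0.56 for Isl1 (SE 0.26, limma adjusted p = 0.310), and without chow P21 library 3 they were 0.23 and 0.20. Isl1 was at 0.89 without chow P21 library 1. Prdm12 was at 0.82 (SE 0.47, adjusted p = 0.397), and at 0.44 without HFD P21 library 4, 0.48 without chow P21 library 2 and 1.25 without chow P21 library 1. Nhlh2 was at 0.44 (SE 0.28, adjusted p = 0.454), and at 0.12 without chow P21 library 3 and 0.71 without chow P21 library 1. The other 4 lay between -0.38 and 0.16.

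None of the 32 other factors tested passed at P21 either, by limma, and 8 of them had an unadjusted p under 0.05, against 17% of all genes. Their medians were -0.60 for 13 arcuate, -0.51 for 6 ventromedial and -0.63 for 13 paraventricular, lateral and mammillary factors, against -0.02 over all genes. All 13 of the last list had a difference below 0. Without chow P21 library 3 these medians were -0.28, -0.52 and -0.39. The summed marker lists of 4 groups of cells other than POMC neurons also lay lower in HFD P21. Of the astrocyte, radial glia and tanycyte list, 11 of 12 markers had a difference below 0. Vim had a difference above 0 (0.67, SE 0.21), and none of the 12 passed the threshold. Summed levels in HFD P21 and chow P21 were 530 to 938 and 1043 to 1430 units for astrocytes, radial glia and tanycytes, 3336 to 6390 and 7194 to 15643 for oligodendrocytes, 148 to 206 and 250 to 398 for microglia, and 53.0 to 84.5 and 115 to 159 for endothelial and mural cells. Not every list lay lower. KNDy neurons, marked by Kiss1, Tac2 and Pdyn, had sums of 132 to 183 units in HFD P21 against 112 to 123 in chow P21. The sums of Agrp and Npy overlapped, at 517 to 1005 against 65.9 to 689. Of the 9 POMC neuron markers, 7 had a difference above 0. Cartpt (1.91) and Asb4 (1.73) passed the threshold, with limma adjusted p = 0.0137 for both. The part of these cells in the result was not tested.

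At P0 maternal diet likewise moved 0 of the 9 factors past the threshold, where 0.291% of 14086 genes passed, and edgeR on reads recovered from 2 HFD P0 and 3 chow P0 libraries also called 0 of the 9. At an unadjusted p under 0.05, 2 of 9 passed, against 9.28% of all genes, and no factor had groups that did not overlap, against 2.45% of all genes. Sim1 had 17.8, 13.2, 8.76, 9.93 and 9.95 units in HFD P0, against 8.62, 9.97, 4.64, 5.62 and 4.60 in chow P0, a log2 difference of 0.76 (SE 0.27, limma adjusted p = 0.372). The 2 highest HFD P0 libraries lay above every chow P0 library, and the other 3 lay within the chow range. Prdm12 had 1.89, 2.50, 1.62, 1.68 and 4.39 units in HFD P0, against 3.08, 10.7, 3.45, 5.10 and 62.7 in chow P0. Its log2 difference was -1.55 (SE 0.60, limma adjusted p = 0.417) and -0.87 without chow P0 library 5, the library at 62.7 units. Isl1 was at -0.55 (SE 0.39, adjusted p = 0.703), Tbx3 at -0.62 (SE 0.69, adjusted p = 0.839) and Nr5a1 at -0.58 (SE 0.50, adjusted p = 0.772), and the other 4 lay between -0.10 and 0.25. Without HFD P0 library 5 the differences were -0.90 for Isl1, -1.25 for Tbx3 and -1.06 for Nr5a1, and without chow P0 library 5 they were -0.32, -0.25 and -0.28, none past the threshold. None of the 39 other factors passed at P0, by limma, and 5 had an unadjusted p under 0.05. The nearest to the threshold was Six3, at -1.21 (SE 0.26, limma adjusted p = 0.0682), and without HFD P0 library 5 it was -1.23 (adjusted p = 0.0454).

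The difference between the 2 diet effects was tested over all 17 libraries as the diet effect at P21 minus that at P0, and 0 of the 9 factors passed, where 0.0266% of 15037 genes did. At an unadjusted p under 0.05, 1 of 9 passed, against 15.2% of all genes. This was Prdm12, at 2.37 (SE 0.89, limma adjusted p = 0.223), and 1.69 without chow P0 library 5. Isl1 was at 1.11 (SE 0.56, adjusted p = 0.352), Tbx3 at 1.34 (SE 0.98, adjusted p = 0.523), Nr5a1 at 1.05 (SE 0.67, adjusted p = 0.464) and Sim1 at -0.92 (SE 0.49, adjusted p = 0.373). Without chow P21 library 3 Isl1 was at 0.75, Tbx3 at 0.85 and Sim1 at -1.40, and without HFD P0 library 5 Isl1 was at 1.46, Tbx3 at 1.97 and Nr5a1 at 1.54. A factor that passed with age under one maternal diet and not the other was therefore not shown to differ between diets. The age and diet comparisons share libraries, since the P21 and P0 groups enter both. None of the 39 other factors passed, and 10 had an unadjusted p under 0.05. Without HFD P0 library 5 the count over all genes was 557 of 15022 (2% higher and 1.7% lower) and still 0 of the 9 factors. There 4 other factors passed, 1 of 17 arcuate, 1 of 8 ventromedial and 2 of 14 paraventricular, lateral and mammillary, named after their values were seen. They were Six3 (1.88), Nr2f1 (-2.04), Arnt2, a partner of Sim1 (-0.77), and Lhx1 (-1.71).

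**Figure D4:**
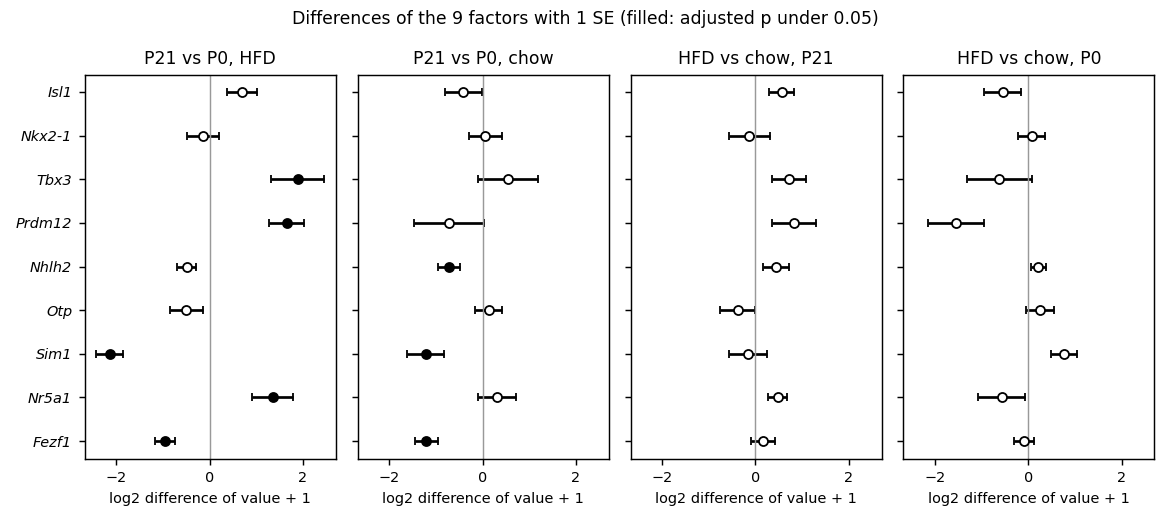
Log2 differences of the 9 factors with 1 SE for the age comparison in HFD and in chow offspring and for the diet comparison at P21 and at P0, with filled points for adjusted p under 0.05. Filled points are 5 in the HFD age panel, 3 in the chow age panel and 0 in the diet panels.

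Within P0 several of the factors, arcuate and ventromedial, were high in the libraries with the most Pomc. The 4 P0 libraries with the most Pomc, HFD P0 library 5 and chow P0 libraries 3, 4 and 5, were also the 4 highest of the 10 for Tbx3 and for Isl1. They were 3 of the 4 highest for Nkx2-1, Prdm12, Nr5a1 and Fezf1. For Nhlh2 they were 2 of the 4 highest and 2 of the 4 lowest, and for Otp 1 of the 4 highest and 2 of the 4 lowest. For Sim1 they were 1 of the 4 highest and 3 of the 4 lowest. Among the 6 P0 libraries with less Pomc, the Pearson r of log2(value + 1) with Pomc was 0.81 for Tbx3 and 0.30 for Isl1. For the rest it lay between -0.21 (Sim1) and 0.53 (Prdm12). The level of Tbx3 spanned 15.6 to 219 units over the P0 libraries, whereas Nhlh2 spanned 38.9 to 70.1. At P21 the order was different, since chow P21 library 3 had the most Pomc of all 17 libraries and the least Isl1 and Tbx3 of the P21 libraries. These are levels of the same libraries set side by side, and no test was made of them.

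**Figure D5:**
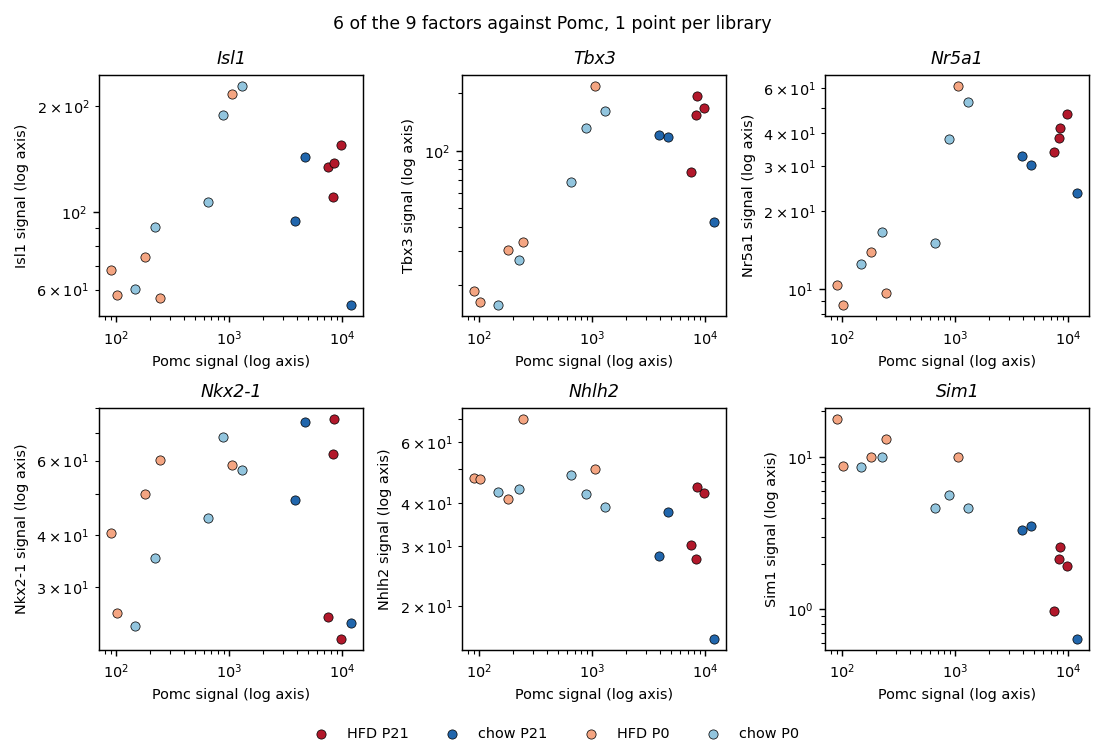
Deposited signal of 6 of the 9 factors against that of Pomc, both on log axes, with 1 point per library. Across the P0 libraries Tbx3 and Isl1 are highest where Pomc is highest, while chow P21 library 3, the point farthest right, is the lowest of the P21 libraries for 5 of the 6 plotted and second lowest for Nkx2-1.

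For each factor, the 3 genes whose log2 deviations from the 4 group means followed it most closely over the 17 libraries were listed as a description. The points share libraries. For Tbx3 they were Irs4 (r = 0.98), P4hb (r = 0.97) and Asb4 (r = 0.97), of which Irs4 encodes an insulin receptor substrate and Asb4 is a marker of POMC neurons. For Isl1 they were Ahi1 (r = 0.96), Cdh13 (r = 0.96) and B3gnt1 (r = 0.95), and for Nr5a1 they were Dpp6 (r = 0.96), Crtac1 (r = 0.96) and Camkv (r = 0.95). For Fezf1 they were Fhl1 (r = 0.92), Slc25a11 (r = 0.92) and Six3os1 (r = 0.91). The nearest genes of the other factors were less close, with r = 0.89 for Srsf12 beside Nhlh2, 0.88 for Morc2a beside Nkx2-1, 0.87 for BC029722 beside Sim1, 0.87 for Adcy5 beside Otp and 0.86 for Tle4 beside Prdm12.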

How the data were processed

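RNA pulled down with POMC-neuron ribosomes was sequenced in 17 libraries, as single reads of 50 bases from Nextera XT libraries, per the labels' protocols. The submitters' processing notes name build mm10, HTSeq 0.6.1, TopHat2 2.0.13, edgeR, Picard 1.80 and FastQC, without their settings. The deposited values are a signal, with 2 decimals, that the authors made by scaling gene counts to an effective library size. Column sums ran from 0.908 to 1.10 M, and at least 99.8% of values up to 400 reads were whole reads within the rounding of the table.

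limma 3.58.1 in R 4.3.3 was fitted to log2(value + 1), with a trend of the prior variance on mean level. Genes were kept if the number of libraries above 1 unit reached the size of the smallest group, with Benjamini-Hochberg adjustment over all genes at 0.05, two-sided. These log2 differences understate the change of genes near 0. In 6 libraries the reads could be recovered sharply, and edgeR 4.0.16 run on them, an alternative added after the data were seen, called 3 of 15139 genes between HFD and chow at P0 and 926 of 15316 genes between P21 and P0 in chow offspring, where P21 was 1 library (chow P21 library 3) against 3 at P0, so that its spread is assumed, not measured. Lengths and positions came from GENCODE M21 on GRCm38, where 93.8% of 15355 symbols matched, and promoter sequences from RefSeq. Alternatives were the pseudocount (0.25), no filter, columns rescaled to 1 sum, all groups in 1 fit, a replicate block and leaving out each library.

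The 9 factors and the lists of other factors and markers were chosen with earlier results of these data known. All 9 factors are named in each comparison, with up to 3 other factors of each list by smallest p, the levels of Pomc, Agrp and Pitx1, and the 3 nearest genes of each factor. The labels call the samples biological replicates without naming animals, so the p-values reflect only how far these samples differ.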

Additional observations from a re-analysis of the deposited data

Results flagged for a closer look

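In 4 of the 27 sets of 4 or more libraries examined, 1 library lay far from the others of its group, where the criterion used is one that about 5% of sets pass by chance, and sets of the same libraries are not independent. HFD P0 library 5 was the high library in 3 of them. It had 217 units of Isl1, where the next highest HFD P0 library had 74.5, 219 units of Tbx3, where the next had 33.4, and 61.3 units of Nr5a1, where the next had 13.9. The same library had 1057 units of Pomc, against 90.7 to 246 in the other HFD P0 libraries, and the most Agrp of its group, 25.6 units. Chow P0 library 5 had 62.7 units of Prdm12, where the next highest chow P0 library had 10.7. That library also had the most Pomc of its group, 1308 units.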

How the results depend on the processing

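The number of the 9 factors past the threshold stayed at 0 for both diet comparisons and their interaction under every limma alternative run. Between P21 and P0 it was 5 or 6 in HFD offspring (4 to 6 with 1 library left out) and 3 in chow offspring (1 to 3 with 1 library left out, the 1 being Fezf1, without chow P21 library 3). edgeR on recovered reads, with 1 chow P21 library assumed to vary like the others, called 0 in chow offspring, and there Nkx2-1 (-1.11), Tbx3 (-1.31), Otp (-0.40) and Nr5a1 (-0.59) changed sign. So did Nkx2-1 at P0 (-0.21) by edgeR and in chow offspring (-0.017) with columns rescaled. The lone library there is chow P21 library 3. Calls over all genes moved to 10 at P0 with all groups in 1 fit, to 16 at P21 with no filter and to 9 for the interaction with columns rescaled, and ran from 18 to 135 at P0, 3 to 51 at P21 and 2 to 557 for the interaction with 1 library left out. The highest of these were without HFD P0 library 5 at P0 and in the interaction, and without chow P21 library 1 at P21. With 1 library left out Nkx2-1 ran from -0.13 to 0.26 at P0, -0.55 to 0.23 at P21, -0.30 to 0.47 with age in chow offspring, -0.44 to 0.13 with age in HFD offspring and -0.61 to 0.16 for the interaction. Fezf1 ran from -0.22 to 0.024 at P0 and -0.011 to 0.39 at P21, Sim1 from -0.63 to 0.095 at P21 and Nhlh2 in the interaction from -0.094 to 0.49 (-0.095 without both HFD P0 library 5 and chow P21 library 3). None of these sign changes concerned a value past the threshold, and their cause was not tested. The replicate block gave 104 genes at P0, 3 at P21 and 133 for the interaction. Same-numbered libraries did not deviate together in every pair (r from -0.17 to 0.49 at P0, -0.04 to 0.10 at P21). What a shared number stands for was not tested. In the age fits and the P21 diet fit, a library whose number is absent from the other group is fitted by its own block term. It then has no weight in the difference. This holds for HFD P0 library 5, chow P0 libraries 4 and 5 and HFD P21 library 4, so the block there also leaves them out. Under the block, with these left out, the age difference of Isl1 was 0.11 in chow offspring and 1.05 (adjusted p = 4.46e-05) in HFD offspring. That of Nr5a1 in chow offspring was 0.93 (adjusted p = 0.0175) and that of Nhlh2 -0.78 (adjusted p = 0.0568). Depth limits Otp (19 to 104 reads a library), Sim1 (14 to 442, median 141) and Prdm12 (42 to 1565, median 128).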

Other observations

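Libraries of 1 group differed more in some of these factors than in most genes. The SD of log2(value + 1) of Tbx3 was larger than that of 99.8% of genes in HFD P0 and of 99.7% in chow P0, and that of Prdm12 was larger than that of 99.9% of genes in chow P0 and of 60.7% in HFD P0. Isl1 exceeded 94.0% and 94.4% of genes in HFD P0 and chow P0. Nhlh2, in the same chow P0 libraries, exceeded 2.73% of genes and Otp 7.03%. At P21 Nkx2-1 exceeded 96.7% of genes in HFD P21 and 96.7% in chow P21, while Fezf1 exceeded 7.32% and 78.2%.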
